A study of Rattus norvegicus with 12 samples.

Results

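The miRNAs described here are 6 that circulating blood cells are known for, measured in rat soleus muscle: rno-miR-451 and rno-miR-144, the red cell members, and rno-miR-223, rno-miR-142-3p, rno-miR-142-5p and rno-miR-150, the white cell members (the prefix for rat is left out from here on). They were picked by name, without star strands (the less abundant strand of a hairpin), from the 677 rat miRNAs on the array. A further red cell miRNA, miR-486, was not analysed here. Soleus, a hindlimb muscle, was taken from 12 male Sprague-Dawley rats at 1 year of age, of which 6 were born to control dams (control rats) and 6 to dams given a high fat diet in pregnancy and lactation (high fat rats). The methods add that the high fat diet, which was also rich in sucrose, began before mating, that all offspring ate standard chow from weaning, and that blood was drawn by cardiac puncture. Whether the muscles were flushed of blood is not given in the sources used here. The groups follow the sample labels, and the numbers of rats that the study's text gives differ from them. Each rat had its own array, and every array held total RNA of whole muscle with an input of 100 ng.

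Red cell precursors make miR-451 and miR-144 from a single transcript under the control of GATA1, and miR-451 stays abundant in mature red cells. Its hairpin is unusual because Dicer does not cut it and Argonaute 2 does. miR-223 is a miRNA of the myeloid line, above all of neutrophils, and is also abundant in platelets. Both arms of the miR-142 hairpin are made in nearly all blood cells and hardly elsewhere, while miR-150 belongs to mature lymphocytes, where it acts on the transcription factor Myb. In whole muscle, fewer cells of a type and less of a miRNA per cell cannot be told apart.

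The mature sequences are shown because the guide strand of each hairpin, and above all its seed (bases 2 to 8, in capitals), defines what the array row stands for and which of the 6 are related. RefSeq entries on the GRCr8 build matched 5 of the 6, and the older array names miR-451, miR-144 and miR-223 were read as the arms miR-451-5p, miR-144-3p and miR-223-3p.
miR-451: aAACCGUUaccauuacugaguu
miR-144: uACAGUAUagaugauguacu
miR-223: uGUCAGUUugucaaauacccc
miR-142-3p: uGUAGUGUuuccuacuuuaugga
miR-142-5p: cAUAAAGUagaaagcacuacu
The 5 seeds were all different, and no other of the 724 mature entries of the RefSeq table carried any of them. No pair of them thus belongs to a common seed family. They were all poor in G and C, with 30% in miR-144, 33.3% in miR-142-5p, 34.8% in miR-142-3p, 36.4% in miR-451 and 42.9% in miR-223.

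By position, the 6 came from 5 hairpins. Mature miR-144 lies at chr10:63459446-63459465 and mature miR-451 at chr10:63459585-63459606, both on the plus strand, and their hairpins are separated by 89 bases with no other annotated gene over them. Both miR-142 arms come from a single hairpin of 87 bases, with miR-142-5p at chr10:73055119-73055139 and miR-142-3p at chr10:73055155-73055177, within the bounds of the protein-coding gene Tspoap1. Mature miR-223 lies at chrX:65151450-65151470, within the bounds of a long non-coding RNA gene (LOC120099372). The hairpin of miR-150 is annotated at chr1:104741487-104741571, outside other annotated genes.

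Array values were total signals per miRNA after background subtraction by the scanner software, with no normalization between arrays. For this report they were scaled to each array's 75th percentile over the 162 miRNAs detected on all arrays. Between 177 and 220 miRNAs were detected per array, and the 2 slides held 3 rats of each group apiece. As a check of the tissue, miR-1, miR-133a, miR-133b, miR-206 and miR-499, miRNAs of muscle, were detected on all 12 arrays, while miR-141 of epithelium and miR-124 of neurons were detected on none. Of the other markers of foreign tissue, miR-200a and miR-200b of epithelium were detected on 1 array, that of H3, at listed signals of 11.8 and 8.54. miR-9 of neurons was detected on 1 array, and miR-122 of liver on 10, at a listed signal of up to 402. Among the high fat rats, H3 stood apart. Over the 162 miRNAs its array correlated with the other 11 at r = 0.953 to 0.963, where pairs of the others lay between 0.981 and 0.997 (across miRNAs, which are not independent replicates). Its scaled signal of miR-499, a miRNA of slow fibres, was 366, against 4553 to 9137 in the other rats, and H3 alone had no detected miR-208b-3p, another slow fibre miRNA. The title of this sample calls it skeletal muscle, and the methods name soleus as the muscle collected. Whether it is a soleus like the others was not tested. Results that rest on H3 are therefore given with and without it.

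All 6 blood cell miRNAs were detected in all 12 rats, so that none of them had to pass a filter on the strength of a single group. The red cell members spread more widely over the rats than the white cell members. For miR-451 the scaled signal in control rats ran from 581 to 2363 (median 1372), and in high fat rats from 402 to 3054 (median 898). The highest values were those of H3 (3054) and control rat A89 (2363), and the lowest those of high fat rat A37 (402) and control rat A75 (581), so that each group held a high and a low rat and the groups overlapped. For miR-144 the scaled signal ran from 61.6 to 273 (median 114) in control rats and from 41.5 to 241 (median 92.3) in high fat rats. Here A89 was highest at 273, H3 came next at 241, and high fat rat C51 was lowest at 41.5.

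The myeloid miRNA miR-223 varied little. Its scaled signal ran from 286 to 471 (median 407) in control rats and from 307 to 563 (median 439) in high fat rats. No rat lay far from the others, and H3, at 425, was in the middle of its group.

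For miR-142-3p the control range was 439 to 792 (median 549) and the high fat range 434 to 780 (median 509). For miR-142-5p the control range was 26.8 to 72.6 (median 45.1) and the high fat range 26.5 to 78.4 (median 46.5). In both arms the 4 highest rats were control rats C73 and A89 and high fat rats C25 and H20, and the groups overlapped over nearly their whole range.

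The lymphocyte miRNA miR-150 ran from 540 to 765 (median 591) in control rats and from 304 to 790 (median 548) in high fat rats. H3 was lowest of all rats at 304, while the next lowest, A37, was at 503. H3 thus had the highest miR-451 of the 12 rats and the lowest miR-150.

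**Figure D1:**
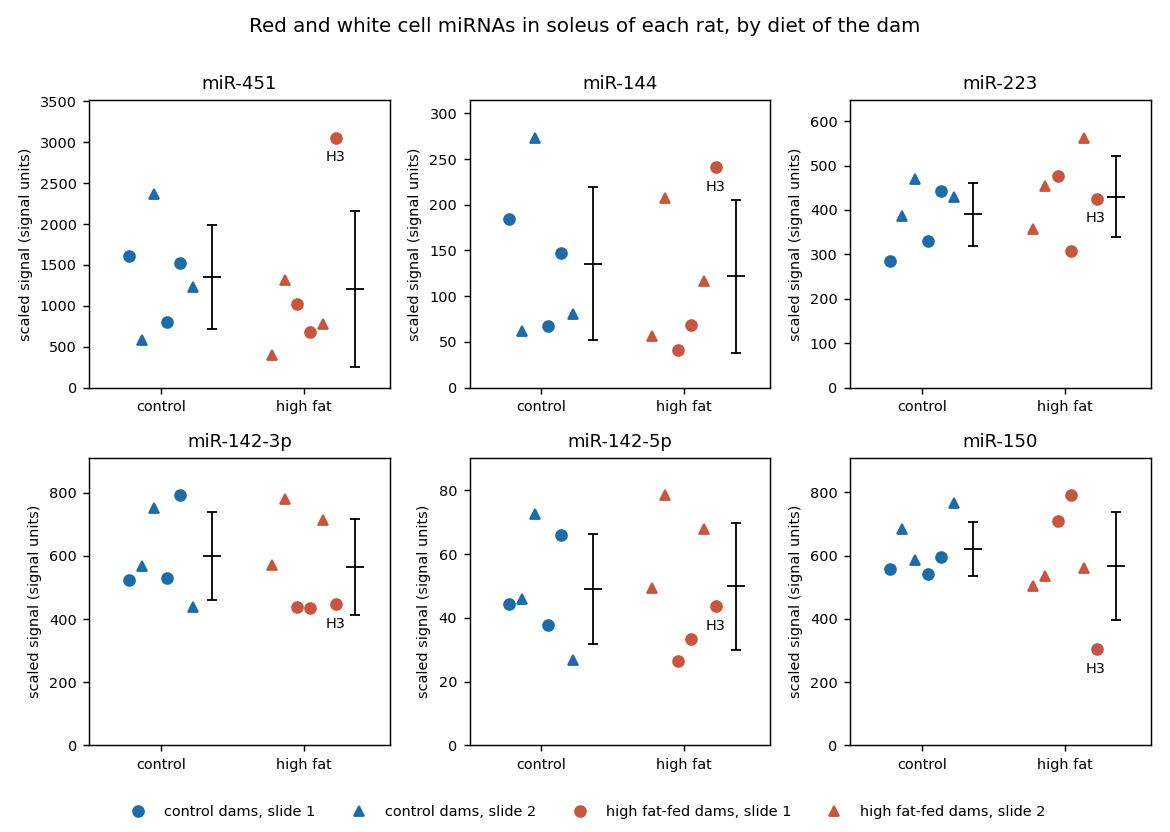
Scaled signal (signal units, linear axis from 0) of the 6 blood cell miRNAs in each rat, with control rats on the left and high fat rats on the right of each panel. Circles are slide 1, triangles slide 2, and the bars beside the points are the mean ± SD of 6 rats. The groups overlapped for every miRNA, and H3 was highest for miR-451 at 3054 and lowest for miR-150 at 304.

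The spread over the 12 rats was measured as the SD of the log2 scaled signal and set beside the same for all 162 miRNAs detected on every array, whose median SD was 0.34. miR-144 had an SD of 0.92, the 3rd largest of the 162, and miR-451 an SD of 0.85, the 6th largest. Without H3 these were 0.89 and 0.74, ranks 2 and 5. Each was also larger than the SD of all 40 miRNAs nearest to it in mean log2 signal. For the white cell members the SD was 0.54 in miR-142-5p (rank 24), 0.36 in miR-150 (rank 71), 0.34 in miR-142-3p (rank 80) and 0.29 in miR-223 (rank 107). The value of miR-150 fell to 0.22 (rank 121) without H3.

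The scanner software's own error gives a measure of what the array adds. For miR-451 that error was 7.58% to 7.71% of the signal, and the SD between rats was 7.68 times as large on the log2 scale. For miR-144 the ratio was 6.48. It was 2.73 for miR-223, 3.17 for miR-142-3p, 2.95 for miR-142-5p and 2.92 for miR-150. The rat-to-rat spread of each of the 6 was therefore larger than the error within an array, which does not include RNA extraction or labelling.

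The next question was which of the 6 rose and fell together across rats. For each of the 15 pairs, Pearson's r and Spearman's rho of the log2 scaled signals were computed over the 12 rats, with a two-sided permutation test and Benjamini-Hochberg adjustment over the 15 pairs. Only 2 pairs passed an adjusted p of 0.05, and each joined miRNAs made from the same transcript. The scaling is shared by all miRNAs of an array, and the median r over the 13041 pairs of all 162 miRNAs was 0.22, with 5% of pairs above 0.80.

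miR-451 and miR-144, the neighbours on chromosome 10, had r = 0.81 (permutation p = 0.00136, adjusted p = 0.0102) and rho = 0.83 (permutation p = 0.00137, adjusted p = 0.0103). Within the slides r was 0.85 and 0.87, and it was 0.94 in control rats and 0.73 in high fat rats, each over 6 rats. In the high fat rats without H3 it was 0.51. Without H3 and A37, the 2 rats farthest from the median of miR-451, r was 0.77 (permutation p = 0.0109). Without H3 alone r was also 0.77 (adjusted permutation p = 0.0453), while rho was 0.78 with an adjusted permutation p of 0.0523. The rat that departed most from the relation was C51, with miR-144 at its lowest, 41.5, and miR-451 at 1019. Without C51, r was 0.90. Scaling to the 75th percentile over all miRNAs, the undetected included, gave r = 0.69 with an adjusted permutation p of 0.0588.

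miR-142-3p and miR-142-5p, the 2 arms of one hairpin, had r = 0.93 (permutation p = 7e-05, adjusted p = 0.00105) and rho = 0.91 (permutation p = 1e-04, adjusted p = 0.0015). Within the slides r was 0.85 and 0.99, and within the diets 0.96 and 0.93. Leaving out the 2 rats farthest from the median of miR-142-3p, C73 and C25, gave r = 0.92 (permutation p = 0.00044), and leaving out H3 gave r = 0.97.

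**Figure D2:**
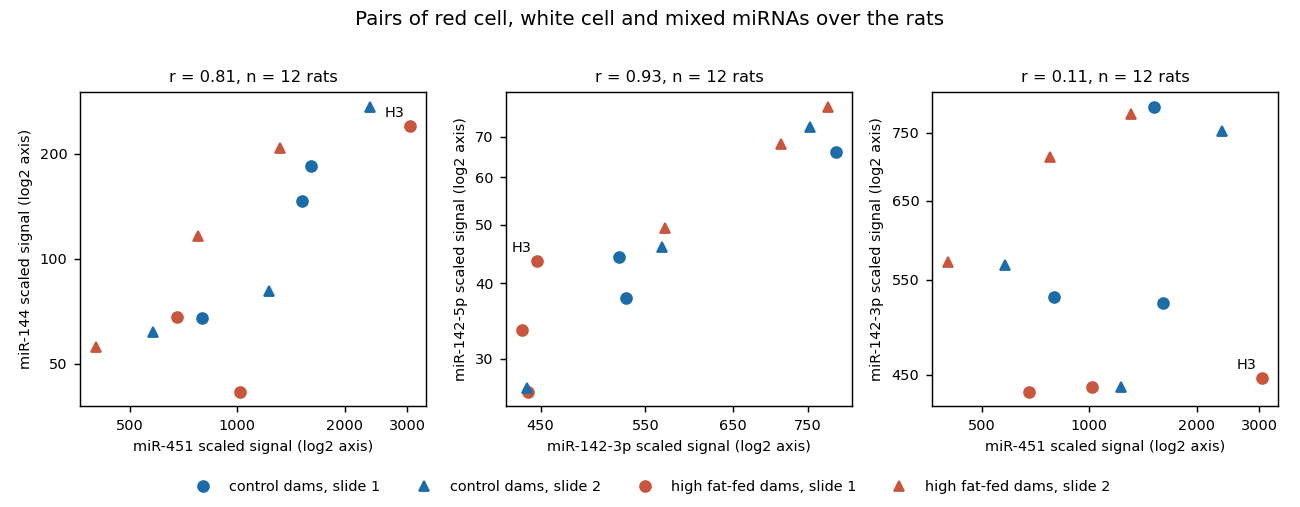
Scaled signals of a red cell pair (left), a white cell pair (middle) and a mixed pair (right), 1 point per rat, both axes logarithmic and in signal units. Colours are the diets and shapes the slides. The points of the first pairs lie along a line (r = 0.81 and 0.93), while those of miR-451 and miR-142-3p do not (r = 0.11, and 0.36 without H3). This mixed pair has the r nearest to 0 of the 8.

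No other pair of white cell members passed. miR-223 had r = 0.44 with miR-142-3p (adjusted permutation p = 0.317) and 0.37 with miR-142-5p (adjusted permutation p = 0.449). miR-150 had a negative r with every other member, from -0.54 with miR-144 to -0.08 with miR-223, and the smallest adjusted permutation p among these 5 pairs was 0.208. Leaving out H3 moved miR-150 against miR-142-3p from -0.10 to -0.64 (adjusted permutation p = 0.0942) and against miR-142-5p from -0.35 to -0.67 (adjusted permutation p = 0.0798). It moved miR-150 against miR-451 from -0.45 to -0.02. The sign of r for miR-150 also depended on the scaling. On unscaled signals of the 12 rats it was 0.50 with miR-223, 0.46 with miR-142-3p and 0.29 with miR-142-5p. With miR-451 and miR-144 it stayed negative there, at -0.14 and -0.03. The median over the 6 white pairs was r = 0.14, and over the 8 pairs of a red with a white member 0.20, both near the 0.22 of all pairs. These medians depend on the scaling: they were 0.61 and 0.41 on unscaled signals. They were 0.51 and -0.20 when the 75th percentile was taken over undetected miRNAs too. The median over all pairs was not computed under these other settings, so these values cannot be set against 0.22.

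Among the mixed pairs, miR-144 with miR-142-5p had the highest r, 0.66 (permutation p = 0.0227, adjusted p = 0.113), with 0.74 and 0.68 within the slides and 0.74 without H3 (adjusted permutation p = 0.0541). For miR-144 with miR-142-3p r was 0.50 (adjusted permutation p = 0.303), and 0.72 without H3 (adjusted permutation p = 0.0619). None of these passed. The partner of miR-144 on the same transcript, miR-451, had r = 0.20 with miR-142-5p and 0.11 with miR-142-3p, and 0.28 and 0.36 without H3.

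**Figure D3:**
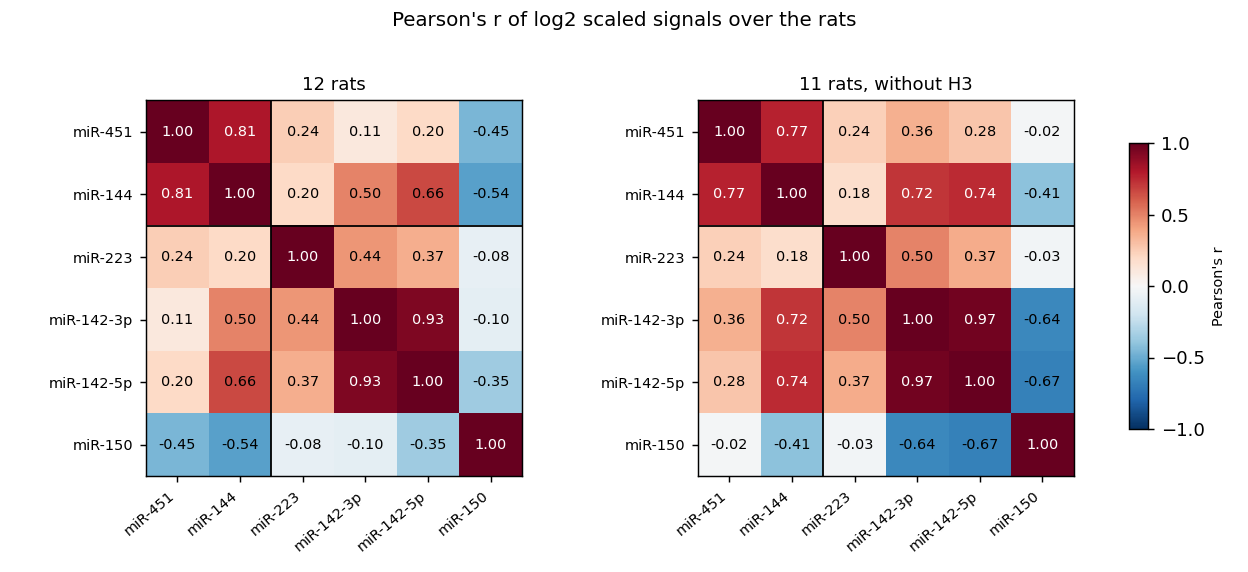
Pearson's r between the 6 blood cell miRNAs over 12 rats (left) and over 11 rats without H3 (right), on a colour scale from -1 to 1, with lines between red cell and white cell members. The pairs from a shared transcript keep 0.77 and 0.97 without H3, and the negative r of miR-150 with both miR-142 arms is larger in size there, at -0.64 and -0.67. All values are of scaled signals, and on unscaled signals of the 12 rats miR-150 had r = 0.46 and 0.29 with these arms.

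Other miRNAs with the most similar pattern were then named, as the 3 of the 156 remaining miRNAs with the highest Pearson's r over the 12 rats. They were chosen for this r, so it carries no test. Nearest to miR-451 were miR-15b (r = 0.90), miR-17-5p (0.77) and miR-872 (0.73). The first of these, from the miR-15/16 family, stayed nearest without H3, with r = 0.86. Nearest to miR-144 were miR-218 (0.77), miR-872 (0.71) and miR-15b (0.69), but without H3 the nearest was miR-146a, at 0.88 in place of 0.36 with H3.

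Nearest to miR-142-3p were miR-146a (0.78), which NF-kB induces in immune cells, its family member miR-146b (0.76) and miR-221 (0.73), and these 3 remained nearest without H3. Nearest to miR-223 were miR-146b (0.69), miR-20b-5p (0.62) and miR-511* (0.52), of which the first 2 remained nearest without H3. Nearest to miR-142-5p were miR-221 (0.72), miR-33 (0.70) and miR-362* (0.69). Without H3 the nearest was miR-146a, at 0.76 in place of 0.61, which was then the nearest non-member of miR-144 and of both miR-142 arms.

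For miR-150 the neighbours were miR-185 (0.93), the endothelial miR-126 (0.92) and the muscle miRNA miR-206 (0.90). These 3 are each lowest in H3, as miR-150 is: miR-126 was at 2004 in H3 and 3951 to 5427 elsewhere, and miR-206 at 9354 against 30841 to 60699. Without H3 they dropped to places 12, 14 and 25, with r = 0.80, 0.78 and 0.67. The nearest to miR-150 were then miR-30c-2* (0.94), miR-361 (0.88) and miR-30a* (0.88), which had r = 0.44, 0.06 and 0.14 with H3.

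Lists of further miRNAs of red cells, of leukocytes and of vessels were set beside a member of each class. The lists were chosen with earlier results of these data known, so their medians carry no test. Of 10 miRNAs on the red cell list, 6 were detected on all arrays, and their median r was 0.61 with miR-451 and -0.05 with miR-142-3p, where the medians of all 156 non-members were 0.04 and 0.19. With miR-144 their median r was lower, at 0.26, and at 0.14 without H3, beside 0.12 over all non-members. Without H3 it was 0.54 with miR-451 and 0.47 with miR-150, where r was positive for all 6. The 6 were miR-15b at 0.90, miR-16 at 0.70, miR-92a at 0.64, miR-25 at 0.59, miR-106b at 0.30 and miR-185 at -0.40 with miR-451. These miRNAs are made in many other cells too, muscle included. Of 12 on the leukocyte list, 9 were detected on all arrays, with a median r of 0.20 with miR-142-3p and 0.21 with miR-451, and of 0.29 and 0.44 without H3. Only miR-146a and miR-146b exceeded 0.50 with miR-142-3p, and miR-155 was not analysed here. Of 6 on the vessel list, 5 were detected on all arrays, with a median r of -0.47 with miR-451 and 0.74 with miR-150, and without H3 these were 0.02 and 0.37. Over all 156 non-members the median r with miR-150 was 0.38. Without H3 the medians over all non-members were 0.16 with miR-451, 0.01 with miR-142-3p and 0.24 with miR-150.

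**Figure D4:**
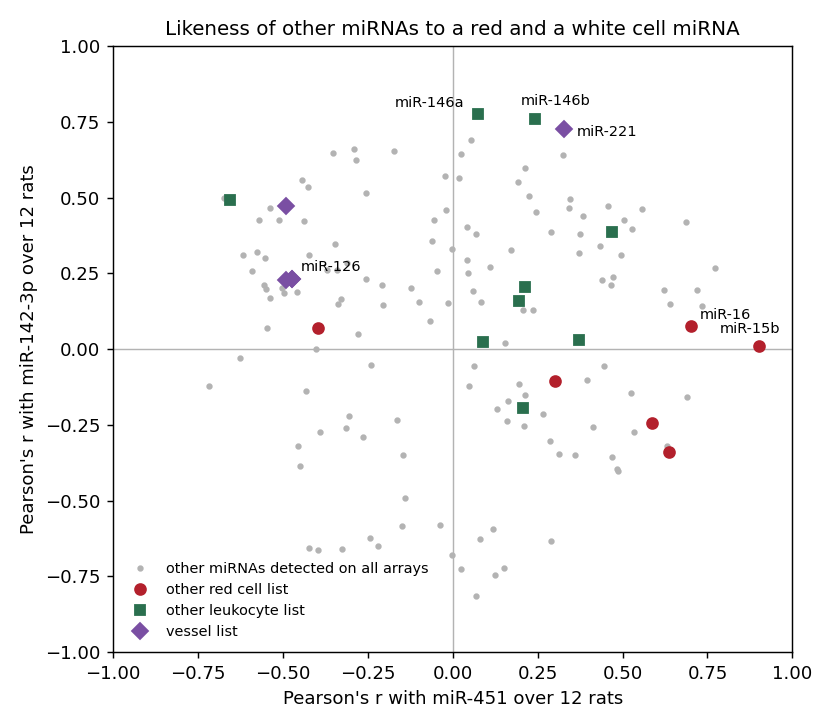
Pearson's r over 12 rats of each of 156 other miRNAs with the red cell miRNA miR-451 (horizontal axis) and the white cell miRNA miR-142-3p (vertical axis), both from -1 to 1, with circles for the red cell list, squares for the leukocyte list, diamonds for the vessel list and dots for the rest. miR-15b (0.90) and miR-16 (0.70) lie far to the right near the horizontal axis, and miR-146a (0.78) and miR-146b (0.76) lie near the top. The place of miR-146a on the horizontal axis rests on H3: its r with miR-451 was 0.08, and 0.67 without that rat.

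Star strands offered a second reading of the same hairpins. miR-144* was detected in 4 rats, namely control rats C73, A110 and A89 and high fat rat H3, which were among the 5 highest for miR-144. By diet these were 3 of 6 and 1 of 6 rats (Fisher's exact test, two-sided, p = 0.545). In H3, miR-144* had a listed signal of 31.7, and in the other 3 rats 10.5 to 16.8. miR-150* was detected in 11 rats and was highest in H3, at a scaled signal of 46.3, where miR-150 itself was lowest. miR-451* and miR-223* were detected in none of the rats, so that these strands were below detection on all arrays.

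The comparison the study was designed for is that of the diets of the dams. None of the 6 blood cell miRNAs passed the test, and each difference was within the spread between rats. In limma, adjusted by Benjamini and Hochberg's method for the 193 miRNAs that 6 or more arrays detected, 0 of the 6 had an adjusted p under 0.05, against 0% of all tested miRNAs. At an unadjusted p under 0.05 it was also 0 of the 6, where 1.04% (2 of 193) of all tested miRNAs passed. The groups overlapped for all 6, as they did for all 193 tested miRNAs (0% not overlapping). Over the members the median log2 fold change (high fat over control) came to -0.14, with 2 above and 4 below zero, beside a median of -0.17 over all tested miRNAs, of which 39 were above and 154 below zero.

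Among the red cell members, miR-451 averaged 1350 ± 638 (SD, n = 6 control rats) and 1208 ± 956 (SD, n = 6 high fat rats) in scaled signal. This is a log2 difference of -0.32 with a standard error of 0.45 (limma adjusted p = 0.788), or a fold of 0.80 with a 95% confidence interval of 0.41 to 1.58. Enumerating every assignment of rats to diets, the exact two-sided permutation p was 0.530. The log2 difference was 0.04 on slide 1 and -0.68 on slide 2, and -0.65 without H3. The interval thus covers a large loss of signal as well as a gain.

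miR-144 averaged 136 ± 83.2 (SD, n = 6 control rats) and 121.7 ± 83.9 (SD, n = 6 high fat rats). Its log2 difference was -0.24 (standard error 0.50, limma adjusted p = 0.881, exact permutation p = 0.660), with a 95% confidence interval of the fold from 0.40 to 1.78. It was -0.50 without H3, 0.07 without scaling, and 0.01 without C51 or without A89.

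Among the white cell members, miR-223 averaged 391 ± 71.0 (SD, n = 6 control rats) and 430 ± 90.3 (SD, n = 6 high fat rats). Its log2 difference was 0.13 (standard error 0.18, limma adjusted p = 0.770, exact permutation p = 0.446), with an interval of the fold from 0.84 to 1.43. The sign was positive on both slides, at 0.19 and 0.08, and under all 26 alternatives run. Several of these alternatives, such as a changed floor, detection filter, slide block or value table, could not move the fold change.

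For miR-142-3p, 601 ± 140 (SD, n = 6 control rats) stood against 564 ± 152 (SD, n = 6 high fat rats), a log2 difference of -0.10 (standard error 0.20, limma adjusted p = 0.881, exact permutation p = 0.645), and without scaling it turned to 0.21. For miR-142-5p, 48.9 ± 17.3 (SD, n = 6 control rats) stood against 49.9 ± 19.99 (SD, n = 6 high fat rats), a log2 difference of 0.01 (standard error 0.30, limma adjusted p = 0.988, exact permutation p = 0.983), with an interval of the fold from 0.64 to 1.58. In both arms the slides pointed opposite ways. The log2 difference of miR-142-3p was -0.46 on slide 1 and 0.25 on slide 2, and that of miR-142-5p -0.51 and 0.52. The difference between the slides was tested in limma as an interaction, after these values had been seen. Its unadjusted limma p was 0.0588 for miR-142-3p and 0.0735 for miR-142-5p, and its limma adjusted p was 0.454 and 0.511.

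miR-150 averaged 621 ± 86.1 (SD, n = 6 control rats) and 567 ± 170 (SD, n = 6 high fat rats). The log2 difference of -0.18 (standard error 0.21, limma adjusted p = 0.736, exact permutation p = 0.444) rested on H3, and without that rat it was -0.01. It was 0.13 without scaling.

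**Figure D5:**
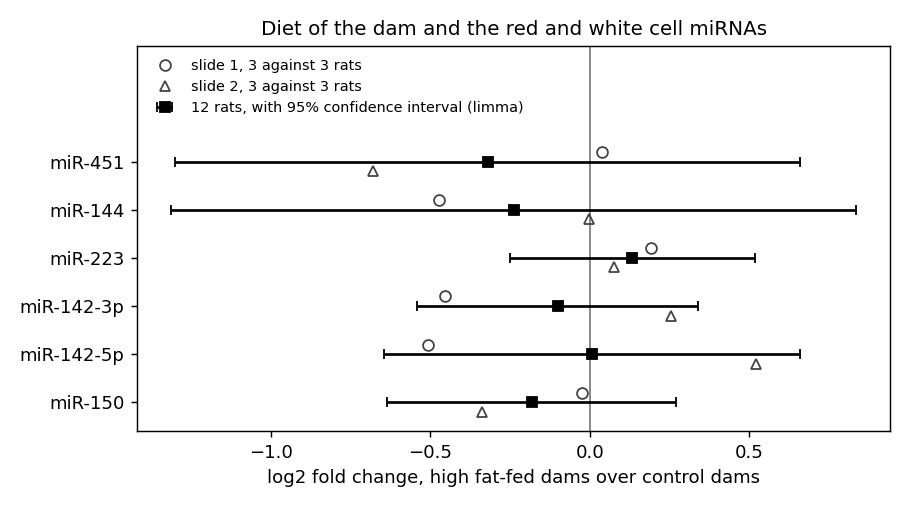
Log2 fold change of each blood cell miRNA, high fat-fed over control dams. Squares are the estimates over 12 rats with their 95% confidence interval in limma, open circles the difference within slide 1 and open triangles that within slide 2. Every interval includes 0. The slides pointed opposite ways for miR-142-3p and miR-142-5p, and also for miR-451, at 0.04 on slide 1 and -0.68 on slide 2.

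The log2 ratio of miR-451 to miR-23a within an array, a measure used for red cell content in serum and plasma, does not depend on the scaling between arrays. The probes differ, so only its differences between rats can be read. miR-23a is not specific to red cells, and whether the ratio follows red cell content in soleus was not tested. The ratio was -3.66 ± 0.88 (SD, n = 6) in control rats and -3.71 ± 1.40 (SD, n = 6) in high fat rats, a difference of -0.06 (exact two-sided permutation test, p = 0.937). H3 was highest at -1.05, with the other high fat rats from -4.99 to -3.53, and it had both the highest miR-451 and the lowest miR-23a (6332 against 11929 to 17802 in the other rats). Without H3 the difference was -0.59, and within the slides it was 0.39 on slide 1 and -0.51 on slide 2.

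The further blood and vessel miRNAs gave no called change either. Of the red cell list 7 were tested, of which 0 were above and 7 below zero, with a median log2 fold change of -0.14. The lowest of these was miR-96, detected on 10 arrays, at -1.55 (standard error 0.95, limma adjusted p = 0.685). Of the leukocyte list 9 were tested, with 1 above and 8 below zero and a median of -0.19. Of the vessel list 5 were tested, all below zero, with a median of -0.22. None of these 21 had an unadjusted limma p under 0.05, and all 3 medians lay close to the -0.17 of all tested miRNAs.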

How the data were processed

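Soleus RNA of 12 rats, grouped by the sample labels, had been hybridised to 1-colour (Cy3) Agilent rat miRNA arrays based on miRBase release 16. For each array the authors deposited a table of summed intensity per miRNA, the error of that sum and a 0 or 1 score for detection, with background subtracted and spots combined by software whose version is not given in the sources used here. Undetected miRNAs are listed at 0.1. The authors' value table of the series held the same intensity values, with 0 differing by over 0.1%.

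The 22 control rows were left out. Each array was divided by its 75th percentile over the 162 miRNAs detected on all arrays (864 to 1911 signal units), brought back to signal units by a common factor, floored at 5.17, the median over arrays of the lowest detected signal, and put on the log2 scale. For the diets, limma 3.58.1 (R 4.3.3) was fitted to the 193 miRNAs that 6 or more arrays detected, without covariates, with Benjamini-Hochberg adjustment. Single miRNAs were compared with the exact permutation test over all assignments, and correlations with 100000 permutations. Nothing says that the rats came from separate litters, so p-values measure the spread between these rats. The number of arrays limits the precision.

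Named miRNAs were the 6 members, their star strands, miR-23a, the red cell, leukocyte and vessel lists, and the 3 nearest non-members of each member. Members and lists were chosen with earlier results of these data known. Alternatives changed the scaling, the floor, the filter on detection, blocks (slide, array row, letter of the rat's label), the test and the value table, or left out each rat. The difference between slides and the neighbours without H3 were added after values were seen. In simulated data for this diet comparison (193 miRNAs, 30 changed, 20 data sets), limma recovered 12.7% of log2 changes of 0.5 and 75.5% of changes of 1. The changed miRNAs were drawn at random, each with its own SD, so these shares are averages. They cannot be carried over to miR-451 and miR-144, whose SDs of 0.85 and 0.92 were far above the median of 0.34. Recovery for single members was not computed.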

Additional observations from a re-analysis of the deposited data

Results flagged for a closer look

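For the log2 ratio of miR-451 to miR-23a, high fat rat H3 at -1.05 lay apart from the 5 other high fat rats (-4.99 to -3.53), with a gap of 0.629 of the whole range, just past Dixon's critical value. It was the only one of 14 groups examined (6 miRNAs and the ratio, in each diet) with a rat set apart, and chance gives about 1 in 20 groups, or 0.7. The part of the muscle markers, which also set H3 apart, in this value was not tested.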

How the results depend on the processing

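Under each of the 26 alternatives to the diet comparison 0 miRNAs had an adjusted p under 0.05, with 1 to 15 at an unadjusted p under 0.05 (15 without rat H1), and none of the 6 blood cell miRNAs passed an adjusted p of 0.05. The signs of miR-451 (-0.65 to -0.01) and miR-223 (0.05 to 0.44) held under all 26. Several of these, such as a changed floor, detection filter, slide block or value table, could not move these fold changes. Without scaling the log2 fold change was 0.071 for miR-144, 0.21 for miR-142-3p and 0.13 for miR-150. Taking the 75th percentile over undetected miRNAs too gave 0.071 for miR-142-3p, quantile normalization 0.15 and array weights 0.078. Leaving out each rat in turn gave -0.50 to 0.012 for miR-144 (positive without C51, and at 0.0079 without A89), -0.20 to -0.015 for miR-142-3p, -0.15 to 0.17 for miR-142-5p (negative without A110, C60, C25, H10, H20 or A37) and -0.29 to -0.014 for miR-150. The r of miR-451 with miR-144 ran from 0.77 to 0.90 with a rat left out, and was 0.69 under that other percentile, where it lost its call (adjusted permutation p = 0.0588). That of miR-142-3p with miR-142-5p was 0.84 or more under all 19 alternatives and kept its call. The median r was 0.51 over white pairs and -0.20 over red with white pairs under that percentile, and 0.61 and 0.41 without scaling. With a rat left out these medians ran from 0.084 to 0.28 and from 0.076 to 0.32. Under that percentile and without scaling, the median over all pairs of miRNAs was not computed. The diet difference in the log2 ratio of miR-451 to miR-23a was 0.39 within slide 1 and -0.51 within slide 2. With a rat left out it ran from -0.59 (without H3) to 0.20 (without A37), positive also without C73, A110, H1, H20 or A89. Omitting the scaling, or taking that other percentile, moved the fold changes of all 6 by the same amount, because all miRNAs of an array share its divisor. The cause of the other changes was not tested. No paired analysis was possible because the labels give the rats no numbers shared between the groups. All members lay above the floor. Low signal limits the star strands and also miR-142-5p, whose lowest listed signal was 24.2 and whose array error reached 19.6% of the signal.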
